A study of Homo sapiens with 8 samples.

Results

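Aminoacyl-tRNA synthetases join each amino acid to its tRNA. Human cells keep a cytosolic set, which feeds the ribosomes of the cytosol, and a mitochondrial set, encoded in the nucleus and imported, which feeds the ribosomes of the organelle. The genes described here were 37 in number, 19 cytosolic enzymes, 16 mitochondrial enzymes and the scaffold proteins AIMP1 and AIMP2, chosen by gene function. No threshold on a measured value entered that rule. A gene was measured where a probe set of the array was annotated to it and to no other gene, and its brightest probe set by the mean of the 8 arrays was used. This held for 33 of the 37 genes, out of 19775 genes in the whole table. These were 17 cytosolic enzymes, 15 mitochondrial enzymes and AIMP1. MARS1, QARS1, TARS2 and AIMP2 were not analysed here.

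RNA came from K562, an established line from a chronic myeloid leukaemia with erythroid features. All cells, controls included, stably carried p42-C/EBPa-ER, the full-length form of the granulocyte transcription factor C/EBPa fused to the oestrogen receptor, which moves into the nucleus when estradiol is added. The treated group received 1 µM beta-estradiol for 6 h (4 arrays) and the control group the ethanol vehicle for 6 h (4 arrays), both in medium free of phenol red whose serum had been charcoal-stripped. No group without the fusion was analysed here, so the effects of estradiol itself and of the fusion cannot be told apart. The sources used here give neither the promoter that drives the fusion nor whether the line is a single clone.

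The arrays had medians between 4.97 and 5.08 and upper quartiles between 6.90 and 7.03 on the log2 scale, and their number limits the precision. Of 8 erythroid markers 7 were measured, and all 7 had mean log2 levels above the array medians. Their mean lay between 11.03 and 11.06 with estradiol and between 11.26 and 11.33 with vehicle. Of 4 epithelial markers EPCAM, KRT8 and KRT18 lay above the medians as well, and the mean of the 4 was 8.66 to 8.71 with estradiol and 8.86 to 8.91 with vehicle. The T cell markers CD3D and CD3E, the B cell marker CD79A and the fibroblast markers COL1A1, COL1A2 and DCN also lay above the medians. A level above the medians alone therefore does not mark a cell type here. The means of T cell, B cell and fibroblast markers overlapped between the groups, at 5.44 to 5.49 against 5.45 to 5.61, 4.95 to 5.01 against 4.97 to 5.09, and 5.62 to 5.72 against 5.57 to 5.78. The part of these shifts in the results below was not tested. In bulk RNA fewer cells of a type and less RNA per cell cannot be told apart.

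Most cytosolic synthetases belong to the genes that the transcription factor ATF4 is known to raise when amino acids run short, through C/EBP-ATF response elements (CAREs). Several of them sit in a large multi-synthetase complex held together by AIMP proteins. The enzymes fall into class I and class II, which differ in the fold of the catalytic domain. GARS1 and KARS1 serve the cytosol and the mitochondrion from a single gene and are counted with the cytosolic enzymes here.

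RefSeq promoters (GRCh38.p14, 250 bases before to 50 bases after the start site) were found for 28 of the 33 measured genes, and those of LARS1, VARS1, YARS1, AARS2 and VARS2 were not among them. They were searched on both strands for TGATGNAA, a CARE form, for CACGTG, the E-box that MYC and other factors bind, and for TTGCGNAA, a C/EBP form. The CARE form stood in 5 of 14 cytosolic promoters and in 1 of 13 mitochondrial ones (YARS2, 197 bases upstream of the start), and in 3.67% of 27305 promoters in all. The 5 cytosolic windows are shown because their genes went in different directions with estradiol. CARS1, IARS1 and TARS1 were lower, NARS1 was higher and AARS1 was not called, as detailed below. Each window is 30 bases read 5′ to 3′ along the gene, with the match in capitals.
CARS1, chr11:3057407-3057436, minus strand: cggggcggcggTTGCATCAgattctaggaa
IARS1, chr9:92293692-92293721, minus strand: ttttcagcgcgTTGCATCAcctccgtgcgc
TARS1, chr5:33440956-33440985, plus strand: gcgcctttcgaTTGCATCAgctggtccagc
AARS1, chr16:70289675-70289704, minus strand: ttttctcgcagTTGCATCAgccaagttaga
NARS1, chr18:57621804-57621833, minus strand: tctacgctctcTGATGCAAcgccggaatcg

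In CARS1, IARS1, TARS1 and AARS1 the match lay on the strand opposite to the gene, and in NARS1 on the strand of the gene. The match began 2 bases upstream of the start site in CARS1, 13 bases upstream in IARS1 and 187 bases upstream in AARS1, at base 3 of the transcript in TARS1 and at base 15 in NARS1. The E-box stood in 3 of 13 mitochondrial promoters (MARS2, EARS2 and CARS2), in 1 of 14 cytosolic ones (IARS1, 186 bases upstream) and in 7.43% of all promoters. The 3 mitochondrial windows are shown because they include the gene with the largest change. The C/EBP form was found in 0 of these promoters and in 0.868% of all promoters. No matches of different motifs overlapped, and a match is a run of letters, not a measured binding site.
MARS2, chr2:197705346-197705375, plus strand: atgcgcctctcaCACGTGctgtcagaacgc
EARS2, chr16:23557348-23557377, minus strand: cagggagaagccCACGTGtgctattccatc
CARS2, chr13:110706501-110706530, minus strand: tgctgggatgcaCACGTGcttcgctaacag

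Synthetase transcripts were first compared gene by gene between the groups at 6 h. Of 17 cytosolic enzymes 8 fell (CARS1, FARSA, FARSB, GARS1, IARS1, SARS1, TARS1 and YARS1), 1 rose (NARS1) and 8 were not called, with limma and a Benjamini-Hochberg adjusted p below 0.05 over all genes. As a share, falls made up 47.1% of the cytosolic enzymes, against 9.60% of all genes, and rises 5.88% against 8.29%. Of 15 mitochondrial enzymes 3 fell (MARS2, EARS2 and PARS2), 0 rose and 12 were not called. At an unadjusted p below 0.05 by limma, 4 mitochondrial enzymes were lower and 2, HARS2 and NARS2, were higher, against 15.8% and 12.4% of all genes. The median change on the log2 scale was −0.13 for the cytosolic enzymes, −0.03 for the mitochondrial ones and −0.03 for all genes.

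The changes were small. Among the 8 cytosolic enzymes FARSA changed most and fell by 15.2%, and YARS1 changed least and fell by 11%. MARS2 fell by 37%. Synthetase genes are bright on these arrays, with mean log2 levels from 7.34 to 12.81, and more genes are called among bright ones. In a fit restricted to the 9887 genes above the median level, 22.9% of the genes, 11 of 17 cytosolic enzymes and 4 of 15 mitochondrial enzymes were called lower. In that fit 20.3% of the genes, 1 cytosolic enzyme and 2 mitochondrial enzymes were called higher. Centring each array on its median, in place of the deposited scaling alone, left 1 cytosolic fall (FARSA), 1 cytosolic rise (NARS1) and 1 mitochondrial fall (MARS2). Falls were then 5.88% of the cytosolic and 6.67% of the mitochondrial enzymes, near the 6.54% of all genes called lower, and 7.82% of all genes were called higher. The higher share of falls among cytosolic enzymes thus did not hold with median centring, where their median change was −0.10 against −0.00 for all genes. In the main fit these medians were −0.13 and −0.03. The SEs of the 8 cytosolic enzymes were larger with median centring, as for FARSA (0.06 against 0.04). The part of the SEs in the lost calls was not tested. Rises made up 33.3% of the called synthetases instead of 8.33% because falls were fewer, with 1 rise in both fits, and over all genes rises made up 54.5% of calls instead of 46.3%. With 75th percentile scaling, 10 of 17 cytosolic enzymes (58.8%) were called lower, against 10.7% of all genes. With quantile normalization 11 of 17 (64.7%) were called lower, against 12.2% of all genes. The higher share of cytosolic falls was thus lost with median centring and kept with these other scalings. With the deposited scaling and without estradiol replicate 4 or without vehicle replicate 4, the cytosolic falls numbered 5 of 17. Falls over all 19775 genes numbered 1456 and 1497 in those fits, against 1899 in the main fit.

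**Figure D1:**
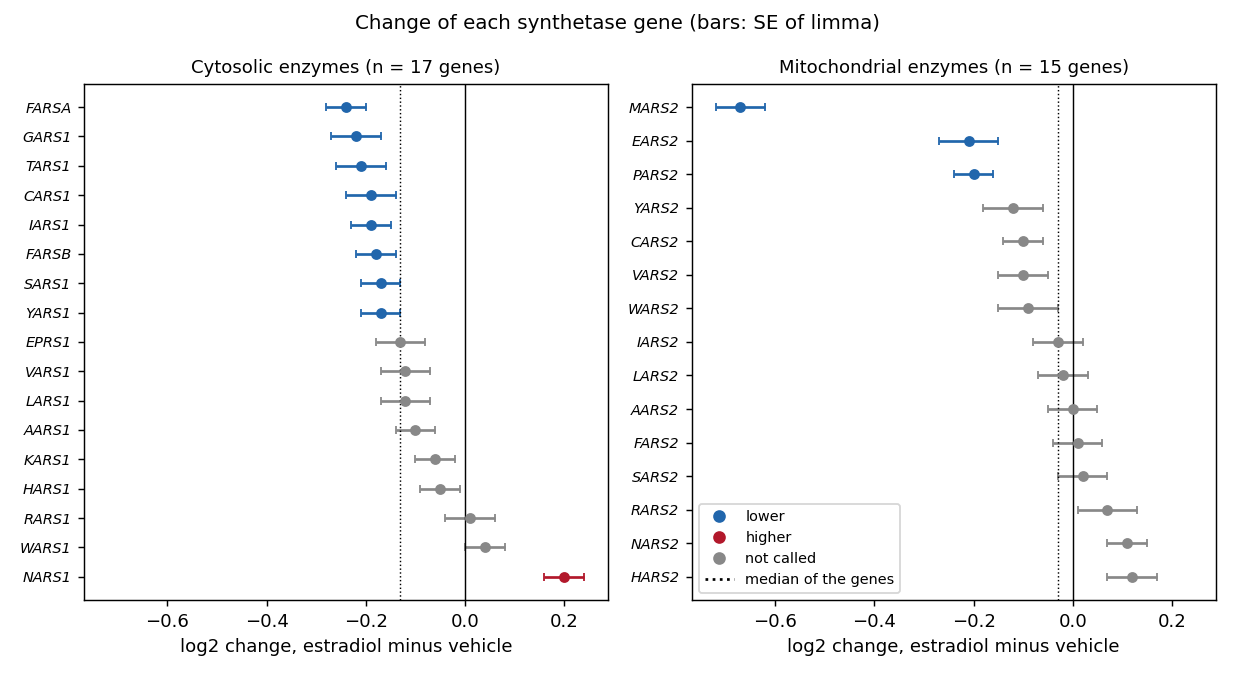
Change of each of the 17 cytosolic and 15 mitochondrial synthetase genes, estradiol minus vehicle on the log2 scale, with the SE of limma as bars. Blue points fell, red points rose, grey points were not called, and the dotted lines mark the medians of −0.13 and −0.03. MARS2, at −0.67, lies apart from all others.

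MARS2, the mitochondrial methionyl-tRNA synthetase, had log2 levels of 7.03, 6.92, 7.02 and 7.08 with estradiol and 7.67, 7.64, 7.78 and 7.61 with vehicle. Every estradiol array lay below every vehicle array, with a gap larger than the range within either group. Estradiol minus vehicle was −0.67 ± 0.05 (SE, limma adjusted p = 3.78e-05), 1.59-fold lower. The gene had a single probe set, so no other probe set bears on it. Its estradiol levels were near the upper quartiles of the arrays, and no detection calls were used.

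EARS2, which charges mitochondrial tRNA with glutamate, stood at 8.65, 8.67, 8.67 and 8.53 with estradiol and at 8.93, 8.74, 8.86 and 8.82 with vehicle on the log2 scale. The change was −0.21 ± 0.06 (SE; adjusted p = 0.0303 by limma). The groups did not overlap, yet the call was lost in 7 of 8 fits that left out 1 array, with adjusted p up to 0.0899, and it was held only without vehicle replicate 2. Its other 3 probe sets changed by −0.16, −0.09 and −0.07 and were not called, and with their mean the call was lost (adjusted p = 0.0906). PARS2, the mitochondrial prolyl-tRNA synthetase, stood at 7.90, 7.85, 7.79 and 7.88 with estradiol and at 8.03, 8.09, 8.05 and 8.04 with vehicle. Its difference was −0.20 ± 0.04 (SE, limma adjusted p = 0.00967), and all 4 estradiol arrays were below the vehicle arrays.

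FARSA and FARSB encode the subunits of cytosolic phenylalanyl-tRNA synthetase, and both fell. FARSA had log2 levels of 9.72, 9.67, 9.70 and 9.68 with estradiol and 9.91, 9.90, 9.95 and 9.96 with vehicle. The log2 change was −0.24 ± 0.04 (SE; adjusted p = 0.00239 by limma). The groups were clearly apart, and its second probe set changed by −0.26. FARSB had levels of 10.97, 10.98, 10.97 and 11.05 with estradiol and 11.15, 11.15, 11.16 and 11.21 with vehicle, a change of −0.18 ± 0.04 (adjusted p = 0.0142). Its groups did not overlap either, and replicate 4 was the highest array of each group. Its other probe sets, at mean levels of 4.58 and 4.82, changed by −0.18 and −0.29 and were not called, and with the mean of its probe sets the call was lost (adjusted p = 0.236).

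GARS1, the glycyl-tRNA synthetase of both compartments, stood at 12.00, 11.98, 11.86 and 11.92 with estradiol and at 12.27, 12.13, 12.11 and 12.15 with vehicle. The log2 change was −0.22 ± 0.05 (SE; adjusted p = 0.0170 by limma). Vehicle replicate 1 was the highest of its group, and the lowest vehicle array was still above all estradiol arrays. TARS1, the threonyl-tRNA synthetase, stood at 11.21, 11.24, 11.11 and 11.18 with estradiol and at 11.46, 11.32, 11.40 and 11.41 with vehicle, a change of −0.21 ± 0.05 (adjusted p = 0.0134). The groups did not overlap, and the nearest values were those of replicate 2 in each group. Its other probe set, at a mean level of 4.56, changed by −0.09 and was not called, and with the mean of its probe sets the call was lost (adjusted p = 0.132).

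CARS1, the cysteinyl-tRNA synthetase, had log2 levels of 10.09, 10.12, 10.05 and 10.14 with estradiol and 10.36, 10.21, 10.31 and 10.28 with vehicle. The log2 change was −0.19 ± 0.05 (SE; adjusted p = 0.0198 by limma). All estradiol arrays were below the vehicle arrays. Its other 3 probe sets changed by −0.23, −0.15 and −0.01, and the first of these was called in a fit of all probe sets. With the mean of its probe sets the call was lost (adjusted p = 0.0571). IARS1, the isoleucyl-tRNA synthetase of the multi-synthetase complex, stood at 11.69, 11.64, 11.57 and 11.63 with estradiol and at 11.84, 11.77, 11.81 and 11.84 with vehicle, a change of −0.19 ± 0.04 (adjusted p = 0.0157). Again no values overlapped.

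SARS1, the seryl-tRNA synthetase, stood at 10.68, 10.70, 10.70 and 10.64 with estradiol and at 10.88, 10.86, 10.87 and 10.80 with vehicle on the log2 scale. The change was −0.17 ± 0.04 (SE; adjusted p = 0.0143 by limma). Its second probe set changed by −0.25 and was called as well. YARS1, the tyrosyl-tRNA synthetase, changed by −0.17 ± 0.04 (adjusted p = 0.0147). Some calls were lost when 1 array was left out. Without estradiol replicate 4 those of GARS1 (adjusted p = 0.0554 by limma), SARS1 (0.0548) and YARS1 (0.0554) were lost, and without vehicle replicate 4 those of FARSB (0.0517), IARS1 (0.0531) and CARS1 (0.0512). GARS1 was also lost without estradiol replicate 3 (0.0518), and CARS1 without estradiol replicate 1 (0.0501) or 3 (0.0616) or vehicle replicate 3 (0.0587). Without vehicle replicate 2, EPRS1 and YARS2 were called lower in addition (0.0249 and 0.0348). FARSA, TARS1, NARS1, MARS2 and PARS2 kept their calls in all 8 such fits.

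NARS1, the asparaginyl-tRNA synthetase of the cytosol, was the single synthetase gene that rose. Its log2 levels were 11.18, 11.13, 11.17 and 11.18 with estradiol and 11.01, 10.88, 10.95 and 11.01 with vehicle. The log2 change was 0.20 ± 0.04 (SE; adjusted p = 0.0119 by limma). Every estradiol array lay above every vehicle array, and vehicle replicate 2 was the lowest. The call held under each of the 3 other scalings of the arrays.

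**Figure D2:**
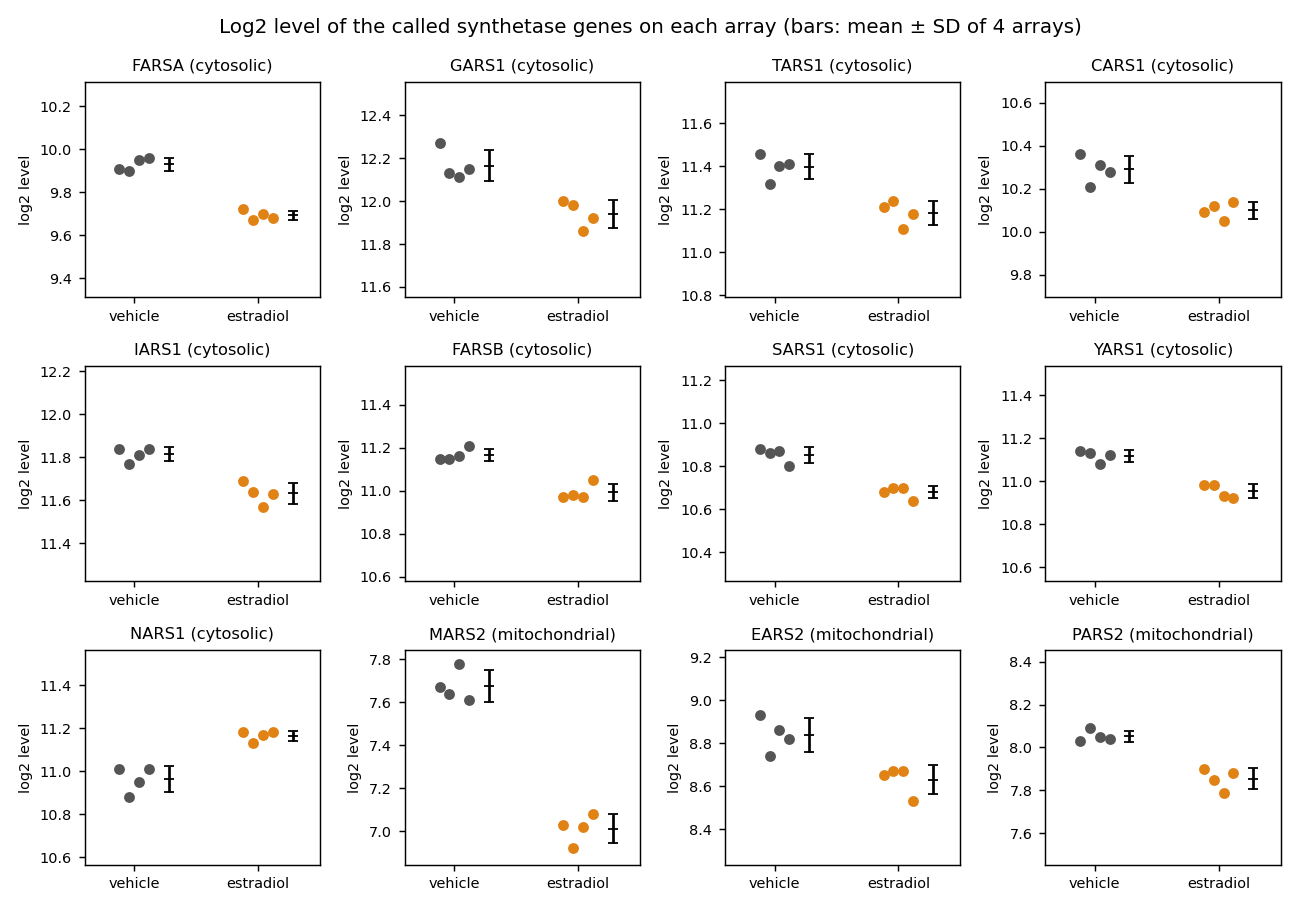
Log2 level of the 12 called genes on each of the 8 arrays, vehicle in grey and estradiol in orange, with the mean and SD of 4 arrays beside the points. Each panel spans 1 log2 unit, and in all 12 panels the groups are apart.

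Another 8 cytosolic enzymes were not called. EPRS1, the bifunctional enzyme for glutamate and proline, changed by −0.13 ± 0.05 on the log2 scale (limma adjusted p = 0.114), VARS1 and LARS1 by −0.12 ± 0.05 each and AARS1 by −0.10 ± 0.04. All 4 had an unadjusted p below 0.05. KARS1, the lysyl-tRNA synthetase of both compartments, changed by −0.06, HARS1 by −0.05, RARS1 by 0.01 and WARS1, the tryptophanyl-tRNA synthetase, by 0.04. Counted without regard to the test, estradiol values lay wholly below vehicle values in 12 of 17 cytosolic enzymes, against 12.9% of all genes, and in 4 of 15 mitochondrial enzymes. They lay wholly above in 1 cytosolic and 2 mitochondrial enzymes, against 11.1% of all genes.

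The 12 mitochondrial enzymes that were not called ran from −0.12 (YARS2) to 0.12 (HARS2) on the log2 scale. CARS2, VARS2 and WARS2 changed by −0.10, −0.10 and −0.09. IARS2, LARS2, AARS2, FARS2 and SARS2 lay between −0.03 and 0.02, with SEs of about 0.05 each. RARS2 changed by 0.07 and NARS2, the mitochondrial asparaginyl-tRNA synthetase, by 0.11 ± 0.04 (limma adjusted p = 0.117). A second probe set of WARS2 changed by 0.19 and was called higher in the fit of all probe sets (adjusted p = 0.0452), while the one that stood for the gene did not pass. Over all 70 probe sets of the 33 genes 14 were called lower and 2 higher, against 6.54% and 6.61% of all probe sets.

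Within the cytosolic set, the 5 measured enzymes of the multi-synthetase complex (EPRS1, IARS1, KARS1, LARS1 and RARS1) held 1 fall, with a median log2 change of −0.12. Its scaffold gene AIMP1 had levels of 10.35, 10.47, 10.33 and 10.36 with estradiol and 10.42, 10.39, 10.47 and 10.44 with vehicle, overlapping groups, and changed by −0.05 ± 0.05 (SE; adjusted p = 0.532 by limma). The 12 cytosolic enzymes outside the complex held 7 falls and 1 rise, with a median of −0.17. By catalytic class, 3 of 7 cytosolic class I enzymes and 5 of 9 class II enzymes fell, with medians of −0.12 and −0.17. EPRS1 has both classes and was left out of these counts. Of the mitochondrial enzymes 2 of 9 in class I and 1 of 6 in class II fell, with medians of −0.10 and 0.02. Over all genes 9.60% were called lower and 8.29% higher. Differences between these subgroups were not tested.

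Cytosolic and mitochondrial enzymes were then compared for the same amino acid. For each of 15 measured pairs the log2 ratio of the cytosolic to the mitochondrial gene was taken on each array, and its change with estradiol was tested with a two-sided exact permutation test over the arrays. FARSA and FARSB share FARS2, and EPRS1 was set against EARS2 and PARS2. The smallest p that 4 against 4 arrays allow is 0.0286, and 6 pairs reached it. With Benjamini-Hochberg adjustment over the 15 pairs 0 passed, and the smallest adjusted p was 0.0714 in this exact test. For any pair to pass, 9 of the 15 would have to reach the smallest p. A missed threshold does not show that the paired genes changed alike.

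The ratio of FARSA to FARS2 changed by −0.25 ± 0.03 on the log2 scale (SE, exact permutation p = 0.0286), that of SARS1 to SARS2 by −0.20 ± 0.04 and that of FARSB to FARS2 by −0.19 ± 0.04. HARS1 to HARS2 changed by −0.17 ± 0.04 and IARS1 to IARS2 by −0.15 ± 0.03, each at the same exact p. HARS1 and HARS2 lie head to head on chromosome 5 with start sites 85 bases apart, and neither was called alone. The ratio of NARS1 to NARS2 changed by 0.10 ± 0.03, also at that p, with higher levels of both genes. Of the 15 ratios 11 were lower with estradiol. The 9 pairs above the smallest p ran from −0.10 (AARS1 to AARS2, LARS1 to LARS2) to 0.13 (WARS1 to WARS2). Averaging each gene's probe sets brought the last to 0.00 and LARS1 to LARS2 to 0.01. It brought FARSB to FARS2 to −0.14 (exact permutation, adjusted p = 0.619) and FARSA to FARS2 to −0.17. The other probe sets of FARS2 changed by −0.16 and −0.09, against 0.01 for the one used. SARS1 to SARS2 went to −0.24, and the HARS, IARS and NARS pairs stayed at −0.17, −0.15 and 0.10.

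**Figure D3:**
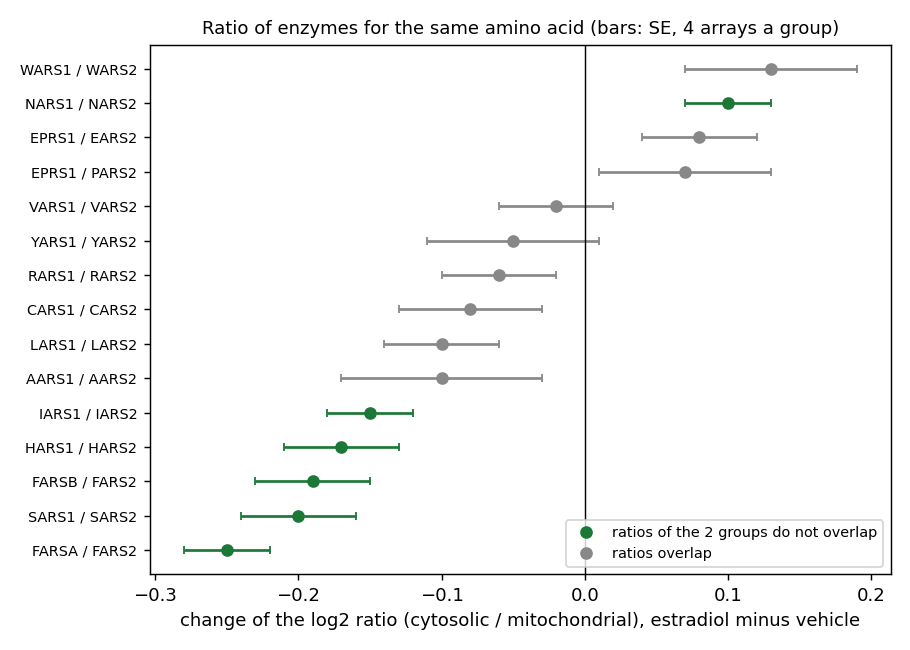
Change of the log2 ratio of the cytosolic to the mitochondrial enzyme in 15 pairs, estradiol minus vehicle, with SE bars from 4 arrays a group. Green points mark the 6 pairs at the smallest exact p of 0.0286, 5 of them below 0 and NARS1 / NARS2 above it.

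Averaged over genes, the 17 cytosolic enzymes averaged 10.77 ± 0.02 on the log2 scale in the estradiol group (SD, n = 4) and 10.88 ± 0.03 in the vehicle group. The estradiol arrays ran from 10.75 to 10.79 and the vehicle arrays from 10.84 to 10.92. The 15 mitochondrial enzymes had means of 8.69 ± 0.02 and 8.77 ± 0.04. The cytosolic mean exceeded the mitochondrial mean by 2.09 ± 0.02 with estradiol and by 2.12 ± 0.01 with vehicle, and the ranges met at 2.11. Both differences include MARS2, the gene that fell most. Without MARS2 the mitochondrial means were 8.81 ± 0.02 with estradiol and 8.84 ± 0.04 with vehicle. The arrays of the groups then shared the values from 8.79 to 8.83.

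Other genes of the pathway were taken from lists chosen by function. Of 8 measured genes that act beside the synthetases, such as the mitochondrial transamidation enzymes and the tRNA deacylases, 1 fell, GATC, a subunit of the amidotransferase that makes mitochondrial glutaminyl-tRNA (−0.16 ± 0.04 log2, limma adjusted p = 0.0205), with a list median of −0.08. That is 12.5% of the list, against 9.60% of all genes. Its partners QRSL1 and GATB, named for that role, changed by −0.14 and −0.05 without passing, and with median centring GATC was not called either. Of 22 measured genes of tRNA maturation and export 11 fell and 3 rose, against 9.60% and 8.29% of all genes, with a median of −0.13. RPP40 (−0.40 ± 0.04), POP1 (−0.37 ± 0.06) and RPP25 (−0.37 ± 0.04), protein subunits of the RNase P and MRP ribonucleases, and TSEN54 (−0.38 ± 0.05), a subunit of the tRNA splicing endonuclease, changed most. The 3 genes that rose were TSEN34 (0.26 ± 0.04) and TSEN15 (0.20 ± 0.05), the other measured subunits of that endonuclease, and ELAC1 (0.24 ± 0.07). Of further subunits of those ribonucleases POP5, POP7 and RPP38 fell (−0.22, −0.32 and −0.31). POP4, RPP14 and RPP30 were not called (0.11, −0.06 and −0.02). With median centring 8 of the 22 fell (36.4%, against 6.54% of all genes) and 3 rose.

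With median centring 1 of 6 measured elongation factors fell (16.7%, against 6.54% of all genes). In the main fit the mitochondrial TSFM (−0.21 ± 0.04 log2, limma adjusted p = 0.00657) and GFM1 (−0.17 ± 0.04) fell, 33.3% of the list against 9.60% of all genes. The other 4, named after their values were seen, were not called. The mitochondrial TUFM changed by −0.08 ± 0.04 (adjusted p = 0.259), and the cytosolic EEF1D and EEF2 by −0.01 each. EEF1A1 equalled the highest value of every array (14.37 to 14.39), so that a change in it could not be read. Of 18 genes of ATF4 and amino acid supply 8 fell (44.4%) and 5 rose (27.8%), against 9.60% and 8.29% of all genes, with a median of −0.14. The stress genes TRIB3 (1.17 ± 0.05) and DDIT3 (0.80 ± 0.05) rose, while SLC7A5, a transporter of large neutral amino acids (−0.63 ± 0.04), and ALDH18A1, an enzyme of proline synthesis (−0.46 ± 0.05), fell. ATF4 itself, named here after its value was seen, was 11.5% lower (−0.18 ± 0.04, adjusted p = 0.0135). With median centring 4 of these 18 genes fell and 4 rose (22.2% each, against 6.54% and 7.82% of all genes).

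**Figure D4:**
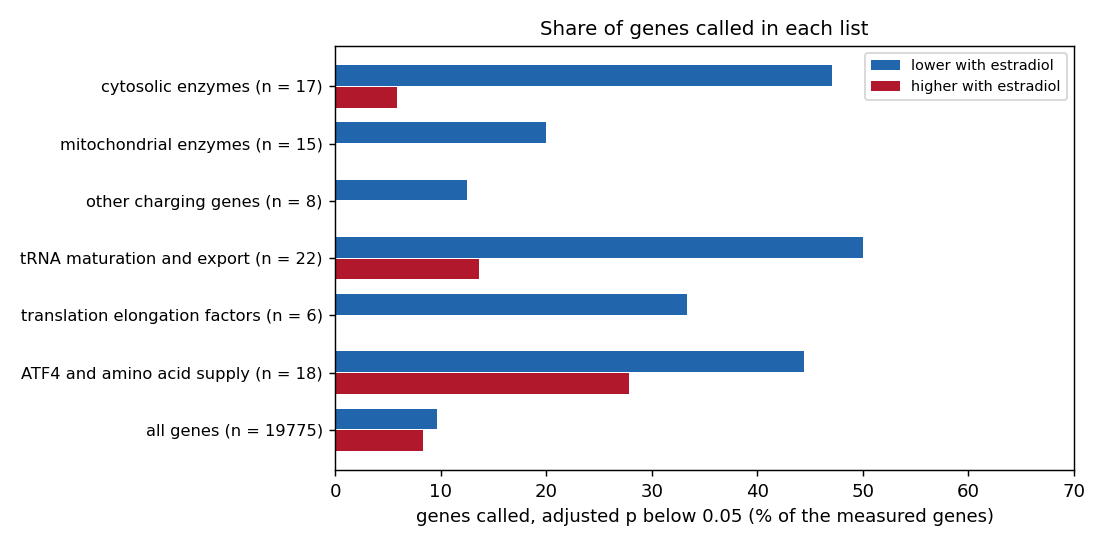
Share of the measured genes of each list called lower (blue) or higher (red) with estradiol at an adjusted p below 0.05, with the number of genes in each list. The share called lower was 47.1% for cytosolic enzymes and 9.60% for all genes.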

How the data were processed

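The authors deposited log2 expression values for 54675 probe sets, computed, per the submitters' processing notes, with RMA (version and chip definition not given in the sources used here). RMA usually brings arrays to a common distribution, which would hide any shift that most genes share. Probe sets with 1 gene symbol (41097) were named, 1801 had several symbols and 11777 none listed. Gene identifiers of 41043 were matched to RefSeq and 0 symbols changed.

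Each of 19775 genes was tested with limma 3.58.1 in R 4.3.3 (lmFit and eBayes, estradiol minus vehicle, two-sided, no block, no filter on dim genes), with Benjamini-Hochberg adjustment over all genes and calls below 0.05. Changes carry SEs and levels carry SDs. Titles call the samples biological replicates without naming separate cultures, so the p-values cover the spread among these samples, which may be technical. Pair ratios were tested with scipy 1.17.1 and figures drawn with matplotlib 3.10.9. Motif shares are over 27305 promoters, 1 a gene.

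All 37 genes are named. Values of every array are given for called genes with the largest change, up to 8 cytosolic and 8 mitochondrial, and for scaffold genes. From each other list up to 4 called genes with the largest change are given. Further genes of those lists were named after their values were seen. Members and lists were chosen with earlier results of these data known. Alternatives covered the replicate block, 3 scalings, 2 filters on dim genes, the mean of probe sets, array weights, a robust fit with a variance trend, each array left out, a stricter threshold and, chosen after seeing the data, a fit of all probe sets.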

Additional observations from a re-analysis of the deposited data

Results flagged for a closer look

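NARS2 was 10.16 on the log2 scale in estradiol replicate 1, against 10.07 to 10.08 in the other 3 estradiol arrays. It was 9.95 in vehicle replicate 2, against 10.00 in the other 3 vehicle arrays. LARS2 stood at 8.94 in vehicle replicate 1, while the other 3 vehicle arrays ran from 8.80 to 8.83. Each of these arrays stood farther from its group than Dixon's limit for 4 values allows. Of 66 groups of 4 values (33 genes in 2 groups) 3 were marked, and chance marks about 1 in 20.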

How the results depend on the processing

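The main counts were 8 cytosolic falls, 1 cytosolic rise, 3 mitochondrial falls and 0 mitochondrial rises. The median change of the cytosolic enzymes lay 0.10 below that of the mitochondrial ones (a difference of −0.10). Mean levels over genes are another measure. With MARS2 among the mitochondrial genes, the cytosolic mean exceeded the mitochondrial mean by 2.09 with estradiol and by 2.12 with vehicle. The contrast was then smaller by means than by medians. Without MARS2 the mitochondrial means were 8.81 with estradiol and 8.84 with vehicle, against 8.69 and 8.77 with it. The cytosolic means were 10.77 and 10.88. With median centring cytosolic falls numbered 1 and mitochondrial falls 1 (1294 falls over all genes, against 1899 in the main fit). With the replicate number as a block they numbered 2 (11.8%) and 1 (6.67%), against 6.91% of all genes (1366 falls). Same-numbered arrays did not deviate together (r = −0.05, −0.21, 0.09 and 0.11), 2 of 8 arrays correlated best with their own number, and the numbers are therefore not taken as pairs. Over all genes the block lowered the calls from 3538 to 2598. With the mean of all probe sets cytosolic falls numbered 5 (1700 falls over all genes). With a variance trend and robust fit they numbered 13, with 2 mitochondrial rises (2254 falls and 2116 rises over all genes, against 1899 and 1639 in the main fit). Mitochondrial rises also numbered 2 among genes above the median level (2009 rises in 9887 genes). Cytosolic falls numbered 10 with 75th percentile scaling (2108 falls over all genes) and 11 with quantile normalization (2421). Mitochondrial falls numbered 5 with quantile normalization (2421 falls over all genes) and 5 with array weights (2368). The array weights moved the difference of medians to −0.13. At an adjusted p below 0.01 there was 1 cytosolic fall and 0 cytosolic rises (2179 genes in all). With each probe set tested on its own, 5404 of 41097 probe sets were called. Without 1 array in turn cytosolic falls ran from 5 to 9, mitochondrial falls from 2 to 4 and the difference of medians from −0.13 to −0.08. Falls over all genes ran from 1456 to 2058 in those fits. The cause of these shifts was not tested. Of 12 called genes FARSA and MARS2 were called under all 19 alternatives. Over 627 values of single genes under alternatives 553 kept their side of the threshold, 47 lost a call, 27 gained one and 0 called values changed sign. Scalings that shift a whole array cancel in pair ratios. The other 30 pair values, from quantile normalization and the mean of probe sets, were above an adjusted p of 0.05 (exact permutation, lowest 0.0612), in a design where 9 of 15 pairs must reach the smallest p for any to pass. Arrays give no depth, and no detection calls were used.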
